A study of Mus musculus with 4 samples.

Results

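Ubiquitin-specific proteases were followed at the mRNA level in DC2.4 cells after ginsenoside Rb1. Their genes were taken from the count table as protein-coding rows named Usp with a number, leaving out Usp18 and chromosome Y, which gave 48 genes of 54532 listed. DC2.4 cells are a mouse line of dendritic origin that grows indefinitely in culture, and ginsenoside Rb1 is a saponin of ginseng; the name Rb1 here is the compound, not the retinoblastoma gene. Bulk RNA was read after 24 h with vehicle (2 libraries) or with Rb1 at 10 uM (2 libraries). Both groups were the same line in the same serum-containing medium, and the labels call the libraries of a group biological replicates without saying how the cultures were separated. P-values therefore measure the spread between these libraries, which may be technical.

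Levels are TMM-normalised counts scaled to library size (CPM) unless FPKM is named. Total counts lay between 17829784 and 18641021. Of the dendritic cell markers, Flt3, Batf3, Clec9a and the class II gene H2-Ab1 had at most 15 counts in a library. Irf8 stood at 132 and 131 CPM with vehicle and 98.6 and 94.1 with Rb1. Cd74 stood at 1054 and 1057 CPM with vehicle and 518 and 495 with Rb1. Between the vehicle and the Rb1 mean, Itgax went from 28.9 to 3.32 CPM and Xcr1 from 1.19 to 0.129, while Zbtb46 went from 2.03 to 5.98 and Ptprc from 110 to 239. Of the macrophage genes, Adgre1 went from 473 to 282 CPM, Csf1r from 256 to 123, and Mrc1 from 133 and 104 counts to 0 in both Rb1 libraries. The part of these shifts in the results below was not tested. Cd3e and Epcam were at 0 in all 4 libraries. FPKM, the authors' length-normalised values, are used wherever genes are set against each other. Every adjusted p comes from the quasi-likelihood test of edgeR, corrected over 13518 genes (Benjamini-Hochberg). Genes under 0.05 are called.

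Ubiquitin-specific proteases form the largest family of deubiquitinases. They are cysteine proteases that cut ubiquitin from proteins or take ubiquitin chains apart, and so oppose the ubiquitin ligases that mark proteins for the proteasome, for endosomal sorting or for signalling. In immune cells, family members act on receptor signalling, on NF-kB and interferon pathways, and on the DNA damage response. Most of the roles named below were worked out with the human proteins.

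Transcripts of the family were mostly higher with Rb1. Of the 48 genes, 41 had enough counts to be tested: 32 were called higher, 1 was called lower and 8 were not called. The filter asks for a minimum of counts in a number of libraries equal to the smaller group, so the tested genes are not all members. Over all genes tested, 35.7% were called higher and 36.3% lower. The median log2 fold change was 0.61 over the tested members and -0.01 over all genes tested, and the members ran from -0.47 (Usp4) to 2.23 (Usp24). At an adjusted p under 0.05 and at least a 2-fold rise stood 9 members, where 14.2% of all genes tested did so. In 35 of the 41 both Rb1 libraries lay above both vehicle libraries, against 43.0% of all genes tested. Usp50 is 1 of these 35 and passed the filter on its Rb1 libraries alone. In 3 members both Rb1 libraries lay below, and the share of all genes that did so was not computed. With library totals in place of TMM the median over all genes moved to 0.23 and that over the members to 0.86; 36 members were then called higher and 1 lower, and over all genes 6128 higher and 3662 lower, against 4822 and 4909 with TMM.

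Together the 48 genes took 0.19% and 0.211% of all counts in the vehicle libraries and 0.385% and 0.384% in the Rb1 libraries. Both Rb1 libraries lay above both vehicle libraries, a 1.92-fold higher mean share (exact permutation test, two-sided p = 0.333, the smallest that 2 against 2 libraries can give). Summed FPKM were 333 and 355 with vehicle and 529 and 530 with Rb1. In a bulk sample, more cells with a transcript and more RNA per cell cannot be told apart.

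**Figure D1:**
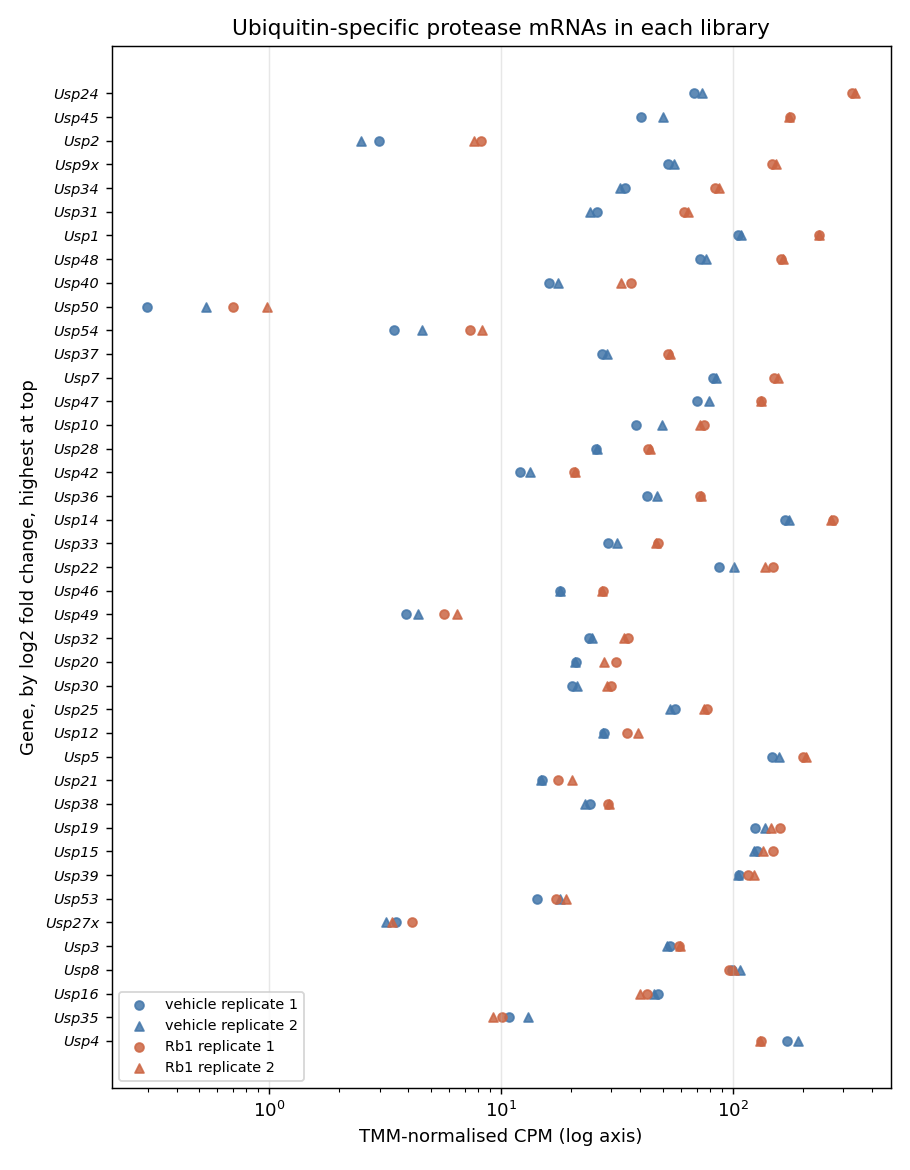
TMM-normalised CPM (log axis) of the 41 tested family members in each of the 4 libraries, ordered by log2 fold change. The Rb1 points lie to the right of the vehicle points in most genes, from Usp24 at the top, and to the left in Usp4 at the bottom.

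Most family members have long gene models, and long models were more often called higher with Rb1 than short ones. The tested members had a median gene model length of 7680 bases, against 3855 over all genes tested, and the shortest (Usp39) had 2445 bases. Among the 22 members over 7 kb, 18 were called higher, where 65.3% of all genes of that length were; their medians were 0.72 and 0.60 on the log2 scale. Of the 9 members of 5 to 7 kb, 7 were called higher, where 47.2% of all genes of that length were, with medians of 0.50 and 0.24. Of the 9 members of 3 to 5 kb, 6 were called higher against 33.2%, with medians of 0.42 and -0.05. The gap between members and genes of like length was thus smallest among the longest. Across the 41 members, which share the same libraries, log2 fold change and length had a Spearman rho of 0.30, and across all genes tested 0.38.

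When the trend of level on length was removed from each library, 20 members were called higher, 7 lower and 14 not called, beside 33.1% of all genes called higher and 36.6% lower. All 20 were also called higher without that step. Of the other 12 members called higher before, 11 were no longer called and 1, Usp19, was called lower. The median over the members was then 0.24, and that over all genes tested -0.03. Removing the trend also removes any change that long genes share, whatever its source. Values with the trend removed are given below beside the main ones for many of the genes named.

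**Figure D2:**
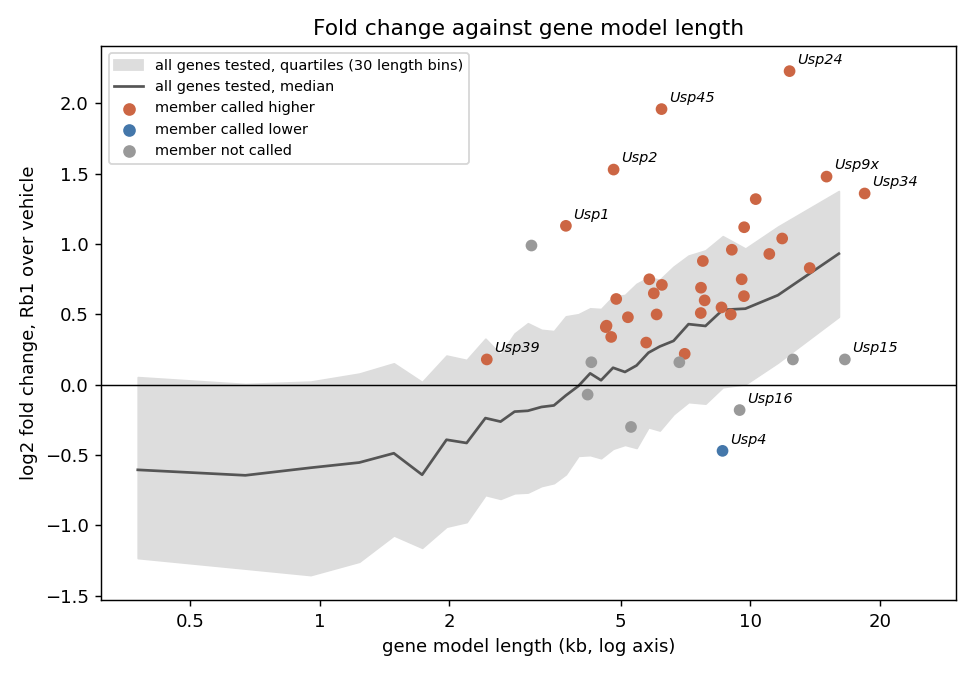
Log2 fold change of Rb1 over vehicle against gene model length (kb, log axis): points are the 41 tested members, the line is the median of all genes tested in bins of like length and the band runs from their lower to their upper quartile. Among others, Usp24, Usp45, Usp2, Usp9x and Usp1 stand above the band, while Usp4 and Usp16 stand below it. The band ends at 16073 bases, short of Usp15, whose 0.18 lies under the band's last lower quartile of 0.484.

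**Figure D3:**
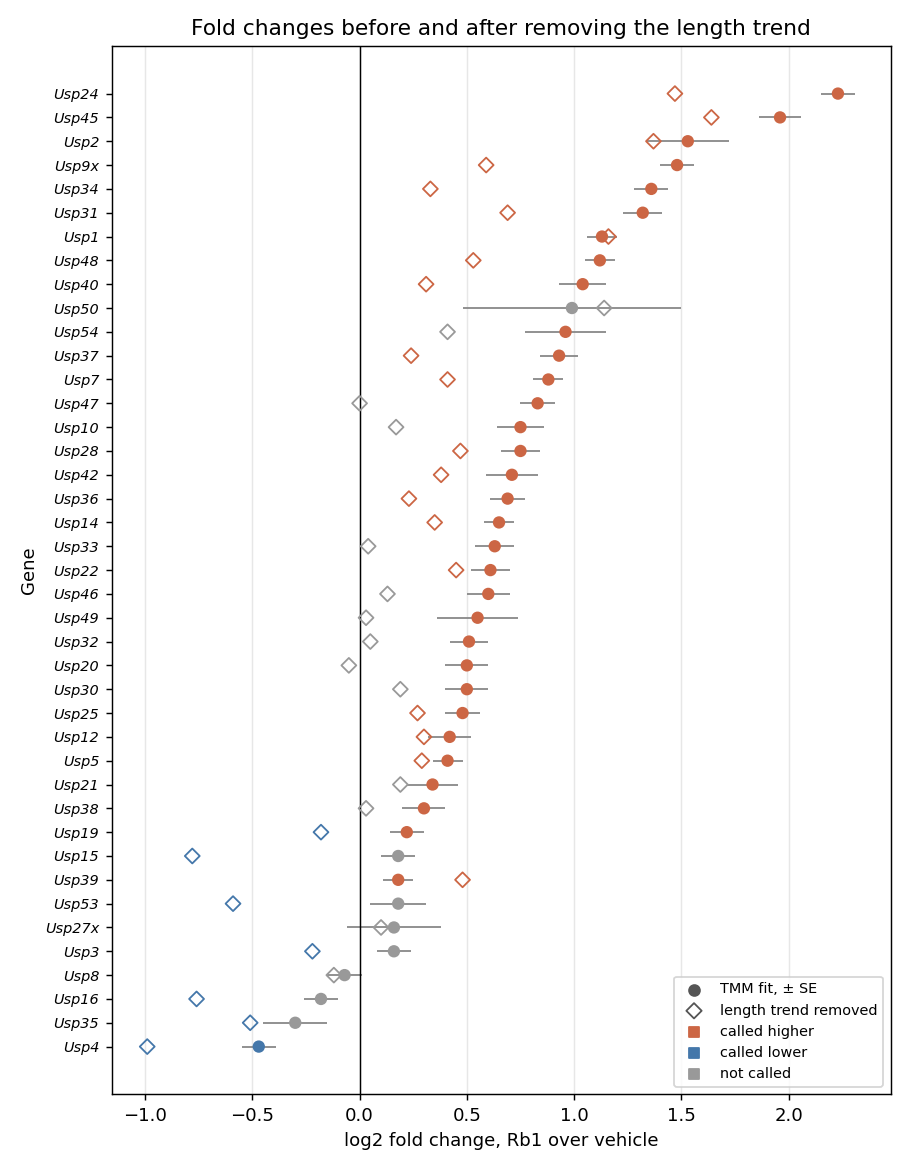
Log2 fold change of each tested member in the TMM fit (filled circles, bars ± SE) and with the length trend removed (open diamonds), coloured by call. Most diamonds lie to the left of their circles; those of Usp1, Usp39 and Usp50 lie to the right, and Usp15 moves from 0.18 to -0.78.

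The 3 promoter windows below are those of the members with the largest rises and of the member that fell, shown because their transcripts mark the extremes of the family. Each runs from 250 bases before to 50 after the RefSeq start (GRCm38.p6), 5′ to 3′ on the gene's strand. Capitals mark matches, on either strand, to the motifs searched. The GC box was searched as GGGCGG, and the box named for its letters as CCAAT. The E-box was searched as CACGTG, the E2F site as TTTCGCGC and the ETS site as CCGGAAG. The TATA box was searched as TATAAA, and the NRF1 core by its palindromic consensus. The first window lies at chr4:106315963-106316262, the next at chr4:21776020-21776319 and the last at chr9:108347581-108347880, all on the plus strand. The RefSeq start of Usp45 lies inside the gene model that was counted.
Usp24: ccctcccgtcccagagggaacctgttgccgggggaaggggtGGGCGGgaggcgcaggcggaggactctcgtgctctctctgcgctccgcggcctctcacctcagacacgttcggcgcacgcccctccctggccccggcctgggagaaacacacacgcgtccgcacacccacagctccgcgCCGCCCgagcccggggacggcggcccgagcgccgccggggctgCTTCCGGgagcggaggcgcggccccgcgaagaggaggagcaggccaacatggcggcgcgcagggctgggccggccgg
Usp45: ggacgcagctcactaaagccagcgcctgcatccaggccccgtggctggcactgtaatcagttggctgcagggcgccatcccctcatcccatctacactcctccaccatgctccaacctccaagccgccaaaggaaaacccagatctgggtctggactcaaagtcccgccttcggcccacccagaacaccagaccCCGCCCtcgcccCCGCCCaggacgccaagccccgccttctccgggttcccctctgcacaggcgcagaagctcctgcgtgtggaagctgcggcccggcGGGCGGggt
Usp4: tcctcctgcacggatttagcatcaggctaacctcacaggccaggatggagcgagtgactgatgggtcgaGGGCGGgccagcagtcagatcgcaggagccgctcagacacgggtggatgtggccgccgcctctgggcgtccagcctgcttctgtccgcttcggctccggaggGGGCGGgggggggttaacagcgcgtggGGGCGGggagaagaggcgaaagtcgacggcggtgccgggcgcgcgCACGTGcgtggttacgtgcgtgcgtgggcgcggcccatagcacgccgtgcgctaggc

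The Usp24 window held 2 GC boxes and 1 ETS site, that of Usp45 3 GC boxes, and that of Usp4 3 GC boxes and 1 E-box. Windows were matched by symbol for 37 of the 48 members, 32 of them tested. A GC box stood in 24 of these 32 windows (75.0%), and in 63.7% of 9612 windows of genes tested. A CCAAT box stood in 5 (15.6%, against 39.6%), an ETS site in 7 (21.9%, against 19.2%), an E-box in 4 (12.5%, against 10.5%) and a TATA box in 2 (6.25%, against 7.02%). The E2F and NRF1 letters were in none of the 32, and in 0.635% and 2.21% of all windows. The members' windows had a median GC content of 66.3%, against 60.7%. These are letter matches in one window a gene and describe no binding.

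Among members linked to the DNA damage response and p53, all 7 tested were called higher (median 0.88), and 5 remained so with the length trend removed. Over all genes tested these shares were 35.7% and 33.1%, and 65.3% of genes over 7 kb were called higher before that step. The same shares apply to the role group counts below. Role groups were chosen with earlier results of these data known, and Usp45, which acts on a repair nuclease subunit, is placed elsewhere. Usp24 (ENSMUSG00000028514, chromosome 4, 106316213 to 106441322, GRCm38, 12350 bases), whose human product acts on p53 and on the damage sensor DDB2, stood at 67.8 and 73.6 CPM with vehicle and 326 and 337 with Rb1. The groups lay far apart, with a 4.69-fold higher mean (2.23 ± 0.08 SE on the log2 scale, adjusted p = 7.8e-10; 1.47 with the length trend removed). It made up 3.20% and 3.27% of the family's counts with vehicle and 9.23% and 9.53% with Rb1.

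Usp1 (ENSMUSG00000028560, chromosome 4, 98923810 to 98935543, 3733 bases) removes ubiquitin from FANCD2 and PCNA, together with its activator WDR48. It stood at 105 and 109 CPM with vehicle and 235 in both Rb1 libraries (2.19-fold; 1.13 ± 0.07 SE on the log2 scale, adjusted p = 6.3e-08). This is one of the shorter members, and its value with the length trend removed was 1.16. Usp2 (ENSMUSG00000032010, chromosome 9, 44067021 to 44095627, 4818 bases), which stabilises MDM2 and cyclin D1, stood low, at 2.99 and 2.50 CPM with vehicle and 8.19 and 7.64 with Rb1. Its log2 fold change was 1.53 (SE 0.19, adjusted p = 2.5e-05), and 1.37 with the length trend removed. On log2(FPKM + 1) it was 0.76, since the added 1 weighs on a gene of about 1 FPKM.

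The other members of this group moved less. Usp7, which acts on MDM2 and p53, rose from 83.4 ± 2.03 to 153 ± 3.57 CPM (mean ± SD, n = 2). Usp28, known for holding up MYC, rose from 25.9 ± 0.18 to 43.6 ± 0.337 CPM. Both remained called with the length trend removed (0.41 and 0.47 on the log2 scale). Usp47, which acts on the repair polymerase beta, rose from 74.4 ± 6.08 to 132 ± 0.995 CPM, and Usp10, a partner of the G3BP proteins, from 43.8 ± 7.99 to 73.8 ± 2.39 CPM. With the length trend removed these stood at 0.00 and 0.17 (adjusted p = 0.99 and 0.094) and were not called.

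Usp45 (ENSMUSG00000040455, chromosome 4, 21767156 to 21837872, 6226 bases), whose human product acts on the excision repair nuclease subunit ERCC1, had the second largest change. It was placed among the members with less studied or other roles. Of the 7 tested there, 4 were called higher and 3 were not called. Their median, 0.99, is the value of Usp50, which was not called and had 5 to 19 counts a library. Usp45 stood at 40.2 and 49.8 CPM with vehicle and 176 and 175 with Rb1, a 3.90-fold higher mean with no overlap (1.96 ± 0.10 SE on the log2 scale, adjusted p = 1.3e-08). With the length trend removed it was 1.64, the highest in the family. Usp48 (ENSMUSG00000043411, chromosome 4, 137593755 to 137658537), a nuclear member that acts on RelA, stood at 72.5 and 76.5 CPM with vehicle and 161 and 164 with Rb1 (1.12 ± 0.07 SE on the log2 scale, adjusted p = 1.1e-07; 0.53 with the length trend removed). Usp40 (ENSMUSG00000005501, chromosome 1, 87945119 to 88008551), a less studied member, stood at 16.2 and 17.7 CPM with vehicle and 36.6 and 33.0 with Rb1 (1.04, SE 0.11, adjusted p = 4.1e-06). Exons of Dgkd (counts of 2346 and 2960 under vehicle, 8486 and 8180 under Rb1) lie opposite 62 bases of it, or 0.522% of its exon bases. With the trend removed Usp40 was 0.31 (adjusted p = 0.013). Usp54 rose from 4.03 ± 0.784 to 7.85 ± 0.644 CPM, and was not called with the trend removed (0.41, adjusted p = 0.062).

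Of the 3 members of ubiquitin recycling, Usp14 and Usp5 were among the most abundant per length and Usp13 was nearly silent. Usp14 (ENSMUSG00000047879, chromosome 18, 9995432 to 10045119), which sits on the proteasome and trims chains from its substrates, stood at 27.8 and 29.0 FPKM with vehicle and 45.4 and 44.3 with Rb1. Its CPM rose 1.57-fold (0.65 ± 0.07 SE on the log2 scale, adjusted p = 5.7e-06). Usp14 is the one member whose deposited length (5974 bases) differs from the exons of GENCODE M21 (8345 bases). Of the latter, 2169 bases lie opposite exons of Thoc1; how many of these were in the counted model is not known, and strand use in counting is not given. Counts of Thoc1 itself were 1008 and 953 under vehicle and 1386 and 1442 under Rb1. Usp5 (ENSMUSG00000038429, chromosome 6, 124815019 to 124829484), which takes free chains apart, stood at 31.5 and 34.2 FPKM with vehicle and 43.3 and 44.9 with Rb1 (0.41, SE 0.07, adjusted p = 0.00029). Both remained called with the length trend removed (0.35 and 0.29). Its paralog Usp13 had 5 counts in vehicle replicate 1 and 0 in the other libraries, and was not tested.

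Of the members that act on histones H2A and H2B, 8 were tested, of which 5 were called higher and 3 were not called (median 0.45). Usp22 (ENSMUSG00000042506, chromosome 11, 61151785 to 61175055), the deubiquitinase of the SAGA coactivator, was among the 5 highest in mean level per length, with 17.6 and 20.5 FPKM with vehicle and 30.5 and 28.3 with Rb1. Its CPM rose 1.53-fold (0.61 ± 0.09 SE on the log2 scale, adjusted p = 5.7e-05; 0.45 with the length trend removed). The nucleolar Usp36 rose from 45.1 ± 3.13 to 72.6 ± 0.454 CPM and Usp42 from 12.7 ± 0.872 to 20.8 ± 0.11 CPM, and both stayed called with the trend removed. Usp21 and Usp49 were called with log2 fold changes of 0.34 and 0.55, and neither was called with the trend removed. Neither was called with DESeq2 (adjusted p = 0.092 and 0.10), nor Usp49 with limma-trend on log2(FPKM + 1) or log2(FPKM + 0.1) (0.17 and 0.18). Of the exon bases of Usp49, 51.2% are also exons of the protein-coding model Gm20517 on the same strand, so its counts are uncertain.

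Of the 3 that were not called, Usp16, which acts on H2A, stood at 47.5 and 45.8 CPM with vehicle and 42.5 and 39.8 with Rb1, lower in both without passing the test (-0.18, SE 0.08, adjusted p = 0.075). Usp3 stood at 53.6 and 52.2 CPM with vehicle and 58.8 and 59.5 with Rb1 (0.16, adjusted p = 0.084). With the length trend removed both were called lower, at -0.76 and -0.22. Exons of Cct8, with 9472 to 10582 counts a library, lie opposite 2.03% of the exon bases of Usp16, and without strand their reads cannot be told apart there. The short X-linked paralog of Usp22, Usp27x, was low and overlapped between groups (0.16, SE 0.22, adjusted p = 0.53), and Usp51 had no count in any library.

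In the group placed under inflammatory and TGF-beta signalling, 5 of 7 were called higher, 1 lower and 1 not called. Usp9x (ENSMUSG00000031010, chromosome X, 13071498 to 13173328, 15051 bases), which acts on SMAD4 and the survival protein MCL1, stood at 52.5 and 55.6 CPM with vehicle and 148 and 154 with Rb1 (2.79-fold; 1.48 ± 0.08 SE on the log2 scale, adjusted p = 1.9e-08). Usp34 (ENSMUSG00000056342, chromosome 11, 23306895 to 23490560, 18453 bases), a Wnt pathway member that acts on axin, stood at 34.2 and 32.6 CPM with vehicle and 83.6 and 87.5 with Rb1 (1.36, SE 0.08, adjusted p = 6.3e-08). Usp31 (ENSMUSG00000063317, chromosome 7, 121642021 to 121707253, 10304 bases), linked to NF-kB signalling, stood at 25.9 and 24.3 CPM with vehicle and 61.5 and 64.2 with Rb1 (1.32, SE 0.09, adjusted p = 1.2e-07). These are among the longest members, and with the length trend removed they stood at 0.59, 0.33 and 0.69, still called. Exons of Ahsa2 lie opposite 11.6% of the exon bases of Usp34. Usp25, which acts on TRAF proteins, rose from 54.7 ± 1.93 to 76.3 ± 1.51 CPM, and Usp38 from 23.7 ± 0.738 to 29.1 ± 0.334 CPM, the latter not called with the trend removed (0.03) or with DESeq2 (adjusted p = 0.07).

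Usp4 was the member called lower. Usp4 (ENSMUSG00000032612, chromosome 9, 108347853 to 108392545, 8628 bases) acts on the type I TGF-beta receptor and, with SART3, in the spliceosome. It stood at 171 and 192 CPM with vehicle and 132 and 131 with Rb1, with no overlap and a 1.38-fold lower mean (-0.47 ± 0.08 SE on the log2 scale, adjusted p = 0.00019). With library totals in place of TMM it was -0.22 and still called (adjusted p = 0.034), and with the length trend removed -0.99. Its paralog Usp15, with a 16599 base model, stood at 127 and 124 CPM with vehicle and 149 and 135 with Rb1. That was not called (0.18, SE 0.08, adjusted p = 0.055), and turned to -0.78 and called lower with the trend removed. The remaining paralog, Usp11, was covered by 3 and 2 reads under vehicle and 7 and 11 under Rb1, a ratio of 3.06 with an exact 95% interval of 1.10 to 10.6 that covers counting error only.

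Members of endosomes and membrane traffic rose modestly, 5 of 6 with a median of 0.50, and 1 of these, Usp12, remained called with the length trend removed. Usp12 and its paralog Usp46, which share the activators WDR48 and WDR20, rose from 27.7 ± 0.249 to 37.0 ± 2.77 CPM and from 18.0 CPM in both vehicle libraries to 27.4 ± 0.172 CPM. Usp20 and Usp33, paralogs that act on receptor recycling, had log2 fold changes of 0.50 and 0.63, and -0.05 and 0.04 with the trend removed. Usp32, which acts on the late endosome GTPase RAB7, had 0.51 and 0.05. Usp8, the ESCRT-bound deubiquitinase of endosomal receptors, stood at 99.5 and 108 CPM with vehicle and 96.3 and 101 with Rb1, overlapping groups that were not called (-0.07, SE 0.08, adjusted p = 0.43).

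Of the members held on organelles, the mitochondrial Usp30, which opposes parkin, rose from 20.9 ± 0.794 to 29.4 ± 0.88 CPM (0.50, SE 0.10, adjusted p = 0.00081), and was not called with the trend removed (0.19). The ER-anchored Usp19 stood at 125 and 138 CPM with vehicle and 160 and 146 with Rb1 (0.22, SE 0.08, adjusted p = 0.027). It stood at -0.18 and was called lower with the trend removed, and its call was lost without either Rb1 library (adjusted p = 0.31 and 0.062), with DESeq2 (0.054) and with limma-trend at both pseudocounts (0.06 and 0.062). Usp37, a cell cycle member that acts on cyclin A, rose from 28.0 ± 0.804 to 53.3 ± 0.628 CPM (0.93; 0.24 with the trend removed, still called). Usp39 (ENSMUSG00000056305, chromosome 6, 72318678 to 72345184), which lacks protease activity and belongs to the spliceosome, was first in mean level per length, at 42.6 and 42.8 FPKM with vehicle and 47.3 and 50.4 with Rb1. It was barely called (0.18, SE 0.07, adjusted p = 0.042), and not with the replicate block (adjusted p = 0.084), with DESeq2 (0.10), or without Rb1 replicate 1 or Rb1 replicate 2 (0.14 and 0.39). As the shortest tested member it stood at 0.48 with the length trend removed.

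The remaining tested members were not called. Usp35 stood at 10.8 and 13.1 CPM with vehicle and 10.1 and 9.29 with Rb1 (-0.30, SE 0.15, adjusted p = 0.088). Usp53 overlapped between groups (0.18, SE 0.13, adjusted p = 0.26), and both it and Usp35 were called lower with the length trend removed (-0.59 and -0.51). Usp50 was covered by 5 and 9 reads under vehicle and 14 and 19 under Rb1 (0.99, SE 0.51, adjusted p = 0.099). Of the 7 members not tested, Usp26, Usp29 and Usp51 had no count in any library, which allows up to 3 counts in each, or between 0.15 and 0.18 CPM. Usp43 had 1 count in all, and Usp44 had 3 with vehicle and 5 with Rb1.

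The order of the family per length held largely between the groups (Spearman rho 0.94 over 41 tested members). With vehicle the order began with Usp39, Usp5, Usp1, Usp14 and Usp8, and with Rb1 with Usp1, Usp39, Usp14, Usp5 and Usp22. Usp5 and Usp1 with vehicle, and Usp14 and Usp5 with Rb1, lay close: 32.8 ± 1.96 and 28.5 ± 0.956 FPKM for the first pair, and 44.8 ± 0.8 and 44.1 ± 1.16 FPKM for the second. The ranges of the first pair did not meet, and those of the second did. Usp1 and Usp14 with vehicle, at 28.5 ± 0.956 and 28.4 ± 0.877 FPKM, overlapped and cannot be ordered. Usp24 went from rank 17 to rank 7 and Usp45 from 14 to 6, while Usp4 went from 6 to 12.

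Relatives with the same protease fold but other names were also called higher. Their gene models had 12576 (Cyld), 8472 (Pan2) and 10238 (Uspl1) bases, and 65.3% of all genes over 7 kb were called higher. Cyld, which cuts linear and K63-linked chains and restrains NF-kB, rose from 45.2 ± 0.327 to 89.8 ± 1.85 CPM (0.99 ± 0.08 SE on the log2 scale, adjusted p = 5.2e-07; 0.22 with the length trend removed). Pan2, a deadenylase subunit without protease activity, rose from 13.5 ± 0.109 to 37.9 ± 1.8 CPM (1.49; 0.97). Uspl1, a SUMO protease, was called at 0.26 and turned to -0.37 and called lower. Of 14 partner genes, 6 were called higher, 2 lower and 6 not called (median 0.12), where 35.7% of all genes tested were called higher. The WDR20 relative Dmwd rose from 28.9 ± 3.25 to 66.0 ± 3.54 CPM, the USP7 partner Gmps from 61.6 ± 4.79 to 94.1 ± 0.928 CPM and Wdr48, the activator of USP1, USP12 and USP46, from 48.3 ± 5.82 to 65.7 ± 0.909 CPM. Wdr20 fell from 35.8 ± 0.896 to 26.7 ± 2.16 CPM, and Eny2, of the SAGA module, from 60.3 ± 3.73 to 45.7 ± 1.97 CPM. With the length trend removed 1 partner, Dmwd, was called higher and 7 lower.

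**Figure D4:**
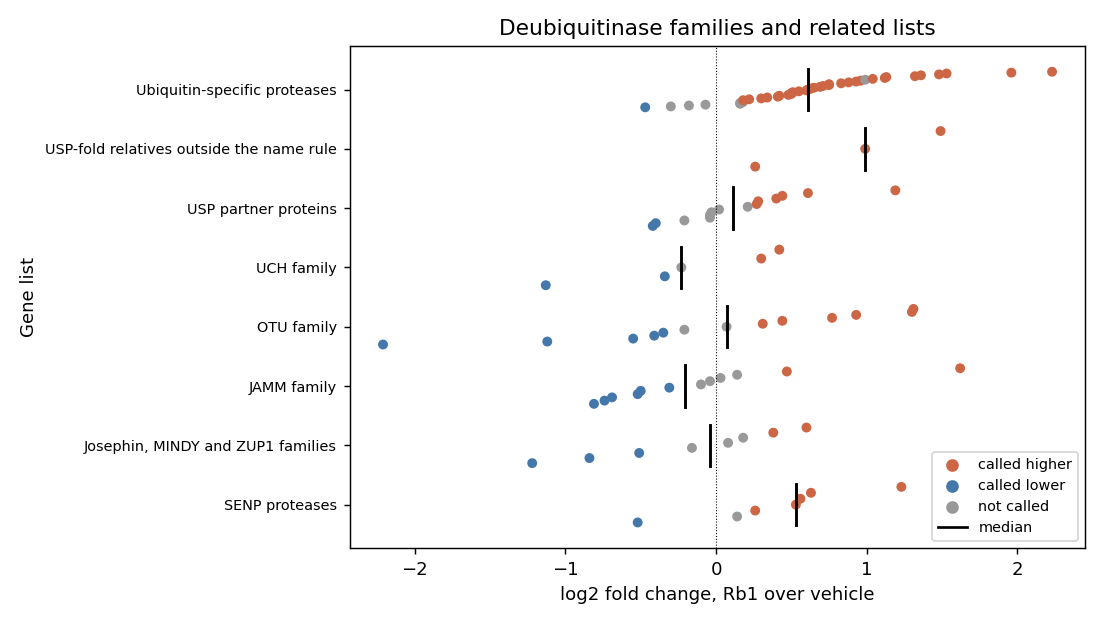
Log2 fold change of each tested gene in the ubiquitin-specific protease family and in 7 related lists, coloured by call, with the list median as a black line. The family's median is 0.61, and those of the UCH, OTU, JAMM and Josephin, MINDY and ZUP1 lists lie between -0.23 and 0.07. The medians of the partner genes, the SENP genes and the relatives with the same fold are 0.12, 0.53 and 0.99.

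Deubiquitinases of other folds were called in both directions, at shares near those over all genes tested (35.7% higher and 36.3% lower). Of 38 tested genes in the UCH, OTU, JAMM, Josephin, MINDY and ZUP1 families, 12 were called higher, 16 lower and 10 not called, with a median log2 fold change of -0.13 and a median gene length of 4256 bases. With the length trend removed 11 of the 38 were called higher and 17 lower, beside 33.1% and 36.6% of all genes tested. The difference from the ubiquitin-specific proteases was not tested. Among OTU genes (6 higher and 5 lower of 13), Tnfaip3, which encodes A20, fell from 121 ± 12.3 to 26.1 ± 0.237 CPM, and Otulin, specific for linear chains, from 134 ± 1.69 to 61.7 ± 4.12 CPM, while Otud4 rose from 50.8 ± 4.75 to 126 ± 6.19 CPM. Among JAMM genes (2 higher and 6 lower of 12), the spliceosome gene Prpf8, whose JAMM domain is inactive, rose from 178 ± 22.5 to 550 ± 4.36 CPM, and Stambpl1 fell from 146 ± 3.81 to 90.4 ± 0.472 CPM. Of the UCH genes 2 were higher and 2 lower of 5, with Uchl1 falling from 5.91 ± 0.364 to 2.69 ± 0.204 CPM. In the Josephin, MINDY and ZUP1 list 2 were higher and 3 lower of 8, with Josd2 falling from 37.5 ± 4.6 to 16.1 ± 0.822 CPM. On the log2 scale, removing the trend moved Otulin from -1.12 to -0.63, Uchl1 from -1.13 to -0.63 and Tnfaip3 from -2.21 to -2.63. It moved Otud4 from 1.31 to 0.82 and Prpf8 from 1.62 to 1.19, and all of these remained called. Of 7 SENP genes, which cut SUMO or NEDD8, 5 were higher and 1 lower, with Senp1 rising from 20.3 ± 0.765 to 47.7 ± 3.34 CPM. Their median length was 7016 bases, and of all genes of 5 to 7 kb and over 7 kb, 47.2% and 65.3% were called higher. With the length trend removed 4 SENP genes were higher and 1 lower, and Senp1 went from 1.23 to 0.50 on the log2 scale.

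Among genes of ubiquitin itself, the polyubiquitin gene Ubb stood at 1747 and 1497 CPM with vehicle and 385 and 376 with Rb1 (-2.09 ± 0.09 SE on the log2 scale, adjusted p = 6.2e-09). With the length trend removed Ubb stood at -1.59, still called lower. Rps27a, which encodes ubiquitin fused to a ribosomal protein, overlapped between groups (adjusted p = 0.46). The E1 enzyme gene Uba1 rose from 413 ± 30.9 to 605 ± 8.28 CPM (0.55, adjusted p = 7.4e-05; 0.40 with the trend removed), and Uba6 was called higher at 0.46 and not called with the trend removed (-0.04).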

How the data were processed

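Total RNA of 4 DC2.4 cultures was read in pairs on an Illumina instrument, per the labels' protocols. Aligner, counter, strand use and annotation: not given in the sources used here. GRCm39 and mm39 are named in the submitters' processing notes, but 98.3% of the 54495 gene IDs found in GENCODE M21 have identical GRCm38 positions, so coordinates are given as GRCm38. Raw whole-number counts were deposited by the authors, with FPKM beside them; each FPKM equals the count per kb of gene length divided by a library constant that was 0.908, 0.943, 1.09 and 1.09 times the count total (vehicle 1 and 2, Rb1 1 and 2). Gene length equals the union of GENCODE M21 exons in 47 of the 48 members, Usp14 being the exception.

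Counts were tested with edgeR 4.0.16 (TMM, filterByExpr, robust quasi-likelihood, a model of group alone with 2 residual degrees of freedom, two-sided). An SE is the log2 fold change over the square root of F. Groups are mean ± SD of 2 libraries. The length trend is a lowess (span 0.3) of log2 CPM on log2 length in each library, used as an offset, which also centres the fold changes. Replicates did not agree within sampling noise (chi-square per degree of freedom 11.8 and 2.87). Replicate numbers stand under batch in the labels and were taken to pair libraries; deviations of same-numbered libraries correlated at -0.0522. On simulated counts over 13518 genes, 74 of 100 genes changed 1.5-fold, 87 of 100 changed 2-fold and 11 of 13318 unchanged genes were called, without a length trend. Far fewer genes were changed there, upward and downward alike, than the 4822 called higher and 4909 called lower in the data. The simulated rates may thus not hold for these libraries. Counting error is all that the floors and intervals describe, as sequenced reads can be copies of one molecule. Alternatives were other scalings (relative log expression, library totals), count filters (none, or at least 1 CPM in 2 libraries), DESeq2 1.42.0, limma-voom and limma-trend on log2(FPKM + 1) and log2(FPKM + 0.1) of genes at a mean of at least 0.5 FPKM (limma 3.58.1), the replicate block, the length trend and each library left out. Members, role groups and lists were chosen with earlier results of these data known. Full values are given for members called with at least a 2-fold change (at most 20), the 5 highest per length and those called lower; for other lists at most 3 called genes with the smallest p, while Wdr20, Eny2, Rps27a, Uba1 and Uba6 were named after their values were seen, as were the library values of members that were not called. Some genes of the related lists are not reported here.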

Additional observations from a re-analysis of the deposited data

How the results depend on the processing

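The count of members called higher lay between 27 and 36 over the alternatives other than the length trend, and with the length trend removed it was 20, with or without the replicate block. The count called lower was 7 there, lay between 1 and 3 when a library was left out (3 without vehicle replicate 1, 2 without vehicle replicate 2), and was 1 otherwise. The median log2 fold change of the members was 0.86 with library totals (all genes: 0.23), 0.45 on log2(FPKM + 1), and 0.24 with the length trend removed, with or without the replicate block; without single libraries it lay between 0.55 and 0.67. Of the 32 members called higher, 27 stayed so under every alternative outside the length trend and 19 under all of them. With the length trend removed, and then with the replicate block as well, Usp19 turned to -0.18 and -0.19, Usp15 to -0.78 and -0.79, Usp3 to -0.22 in both, Usp20 to -0.05 and -0.06 and Usp53 to -0.59 in both. The setting takes away the trend of level on length fitted in each library, and in these libraries that trend was upward with Rb1 for long genes. What these turns reflect was not tested. In the related lists 17 genes in place of 28 were called higher with the length trend removed and the replicate block. The replicate block alone changed the call of 1 tested member, Usp39, and gave 31 members higher and 1 lower. With a library left out, edgeR's adjusted p passed 0.05 upward for Usp38 (0.084 without Rb1 replicate 1, 0.12 without Rb1 replicate 2), Usp21 (0.26 without Rb1 replicate 2), Usp49 (0.056 without vehicle replicate 1, 0.15 without Rb1 replicate 2), and Usp19 and Usp39 as given above. It fell below 0.05 without vehicle replicate 1 for Usp8 (0.026, lower), Usp35 (0.0078, lower), Usp3 (0.036) and Usp15 (0.00067), and without vehicle replicate 2 for Usp16 (0.02, lower), Usp53 (0.014) and Usp15 (0.0039); the lone library left in a group is then assumed to vary like the other group. The low members Usp11, Usp44, Usp43 and Usp13 were limited by depth.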
